A study of Mus musculus with 2 samples.

Results

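The miRNA cluster in an intron of mouse Sfmbt2 was followed through small RNA libraries of fetal liver. Its members were taken by name, as every read sequence of the miRNA class in the deposited table whose name begins with mir-297, mir-466, mir-467, mir-468, mir-469 or mir-669. The rule found 329 of 12128 miRNA read sequences, under 46 of 597 miRNA names. With locus suffixes joined these are 29 miRNAs, and divided by arm they make 45 of 660 units. An arm, 5p or 3p, is the strand of the hairpin from which the mature miRNA is cut, and reads of a name that could not be given an arm count as 1 unit. The cluster has 1 such unit, of miR-297a, with 1 and 4 reads. The names mir-468 and mir-469 had 0 sequences in either library, where 3 reads, the limit that a count of 0 allows, stand for 1.07 RPM (reads per 1000000 reads of the miRNA class). The study held 1 library of wild type and 1 of Ago2ADH mice, both fetal livers at E18.5 on a B6/129 background. Ago2ADH denotes Argonaute 2 made catalytically inactive, and the labels give neither its zygosity nor the number of livers per library. Both libraries were made from gel-cut RNA of 19 to 30 nt and sequenced on an Illumina instrument.

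Sfmbt2 encodes a Polycomb-group protein and is an imprinted gene, expressed from the paternal copy in early embryos and extraembryonic tissues. One of its introns holds a large, rodent-specific array of miRNA hairpins that arose by repeated local duplication, and the array is best known from embryonic stem cells and placenta. Hairpins of this kind are cut by Drosha and Dicer, and the mature strand is loaded into an Argonaute protein, where bases 2 to 8, the seed, pair with target RNAs. Of the Argonautes that carry miRNAs in the mouse, Ago2 is the one known for cutting a well-paired target.

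In the GENCODE M21 annotation of GRCm38, Sfmbt2 lies on chr2:10370510-10595253, plus strand. All 119 annotated hairpins in the gene fell in intron 10, between 10465287 and 10518279, a span of 53.0 kb. The 6 family names covered 71 of them and the other 48 carry provisional names. A further 11 hairpins with family names lie elsewhere in the genome, on chromosomes 3, 5, 6, 7, 9, 10, 11 and 13. The array is repetitive, with 10 copies of Mir467a at a median distance of 2462 bp. Reads of the members were placed on hairpins by exact match, and 319 of the 329 sequences matched at least 1 hairpin in Sfmbt2. Those sequences held 99.6% of the cluster reads in each library, although a match does not show that a read came from that place. The number of genome matches in the deposited table equalled the number of matched Sfmbt2 hairpins for 131 sequences, with 80.6% of the wild type and 78.1% of the Ago2ADH reads. Those sequences were picked by this equality, so it is no separate evidence that their reads came from the array. A source outside the array is not excluded, since the places of the genome matches and the genome build behind them were not given.

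The most abundant read of each of the 8 most abundant arms, and of the additional arm that met the size rule given below, is shown to let the copies be compared. The reads are written 5′ to 3′ with T as in the deposited table, and the capitals mark the seed.
miR-669a-5p: aGTTGTGTgtgcatgttcatgtct
miR-669b-5p: aGTTTTGTgtgcatgtgcatgtgt
miR-669c-5p: aTAGTTGTgtgtggatgtgtgtat
miR-669a-3p: aCATAACAtacacacacacgtat
miR-467c-5p: tAAGTGCGtgcatgtatatgtg
miR-467d-5p: tAAGTGCGcgcatgtatatgcg
miR-467e-5p: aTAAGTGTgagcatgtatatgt
miR-466b-3p: aTACATACacgcacacataaga
miR-297a-5p: aTGTATGTgtgcatgtgcatgt

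Of these reads, those of miR-467c, miR-467d, miR-467e and miR-669c matched the genome at 1 place each, and that place was the hairpin of their name. On chromosome 2 of GRCm38, plus strand, the miR-467c read is at 10473941 to 10473962, the miR-467e read at 10505731 to 10505752, the miR-467d read at 10507640 to 10507661 and the miR-669c read at 10509319 to 10509342. The miR-669a-5p read matched 15 hairpins of the array and the miR-466b-3p read 15, the same numbers as their genome matches in the deposited table. The miR-669b-5p read matched 3 hairpins, Mir669b at 10467814 to 10467837 being the first. The miR-297a-5p read is the exception, with 17 genome matches of which 3 lay on Sfmbt2 hairpins, so most of its possible sources are outside the annotated hairpins of the array.

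The shared base composition follows the strand of the hairpin. The 6-base motif TGTGTG occurred in 62.1% of the 4678 reads of 5p arms, and its reverse complement CACACA in 97.1% of the 840 reads of 3p arms. In all other miRNA reads the same motifs occurred in 0.174% and 0.245%. The bases G and T made up 71.8% of the letters of the 5p reads, against 63.0% in other miRNAs. The bases A and C made up 77.1% of the letters of the 3p reads, against 37.0% in other miRNAs. More of those other reads came from miR-122-5p than from any other arm (1083987 in wild type and 1194083 in Ago2ADH).

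The libraries held 7599870 reads in wild type against 7046197 in Ago2ADH, of which 2808232 and 2811227 were of the miRNA class, so 1 read equals 0.356 RPM in either. Fragments of the Ago2 mRNA, named Eif2c2 in the table, numbered 229 in wild type against 318 in Ago2ADH, counts that do not show the change which inactivates the protein. With 1 library per genotype there is no replicate, so no test was possible and every interval below is a 95% interval that covers counting error only. The reads were amplified by PCR without molecular identifiers, so copies of the same molecule count as separate reads and the intervals may be too narrow. The miRNA miR-451, a red cell miRNA whose precursor is cut by Ago2, made up 11.7% of the miRNA reads of wild type and 0.193% of those of Ago2ADH, and leaving it out of the totals moves the log2 ratio of every other miRNA by -0.18. In the mRNA fragments of the same libraries, 10 of 10 hepatocyte markers were detected, with a summed log2 ratio of 0.06 (0.05 to 0.08), 3 of them with intervals above 0 (Trf 0.32) and 5 below (Serpina1a -0.88). The 8 erythroid markers, all detected, summed to 13656 reads in wild type against 8042 in Ago2ADH (log2 ratio -0.65, -0.69 to -0.61). Of 9 trophoblast markers, 8 were at 0 in both libraries, Tpbpa, Prl3b1 and Gcm1 among them, and Hand1 had 2 reads in wild type. In bulk tissue, fewer cells of a type and less RNA per cell cannot be told apart.

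The cluster was a small part of the liver's miRNAs and had more reads in Ago2ADH. Its members summed to 2260 reads in wild type (805 RPM, 0.0805% of miRNA reads) against 3263 reads in Ago2ADH (1161 RPM, 0.116%). This is 1.44-fold more in Ago2ADH (1.37 to 1.52), or a log2 ratio of Ago2ADH to wild type of 0.53 (0.45 to 0.61). The erythroid markers and miR-451 differed between the same libraries in the other direction, and their part in the value was not tested. With totals that leave out miR-451 the log2 ratio was 0.35 (0.27 to 0.43), smaller and still above 0.

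All 4 families that were detected had more reads in Ago2ADH. The mir-669 family was the most abundant, with 1067 reads in wild type against 1562 in Ago2ADH (log2 ratio 0.55, 0.44 to 0.66). The mir-467 family followed with 753 and 1019 reads (log2 ratio 0.43, 0.30 to 0.57). The mir-466 family, which has the most distinct sequences at 127, had 361 and 485 reads (log2 ratio 0.42, 0.22 to 0.63). These 3 families had overlapping intervals, so their ratios were not distinguishable at this depth. The mir-297 family was the rarest, with 79 reads in wild type against 197 in Ago2ADH, and its log2 ratio of 1.32 (0.93 to 1.71) lay above the intervals of the other 3.

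A size rule was used for single arms: an arm with 100 or more reads over both libraries was called higher or lower when its ratio was at least 2-fold and its interval excluded equality. Of the 45 arms, 13 reached the minimum and held 1985 of the wild type and 2840 of the Ago2ADH reads. The rule called 2 of the 13 higher (15.4%) and 0 lower. Over all 359 miRNA arms past the minimum it called 20 higher (5.57%) and 3 lower (0.836%), so at the background share fewer than 1 of 13 arms would be called higher, and the cluster's count differs from it by very few arms. The arms called were miR-297a-5p and miR-669b-5p. Without them the cluster summed to 2079 and 2854 reads (log2 ratio 0.46, 0.37 to 0.54), so most of the summed difference came from arms below the limit.

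**Figure D1:**
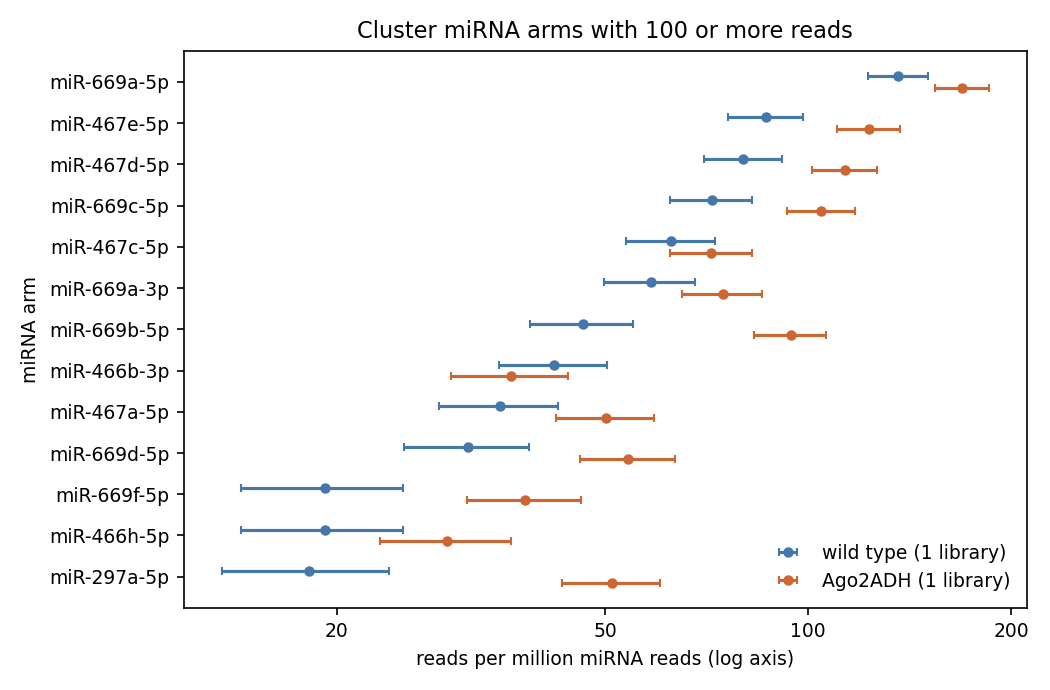
Levels of the 13 cluster arms with 100 or more reads, in RPM on a log axis, for the wild type and the Ago2ADH library, with bars for the exact counting interval of each value. With counts scaled to all miRNA reads, in 12 of the 13 arms the Ago2ADH point lies to the right of the wild type point, and miR-466b-3p is the exception.

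Among the mir-669 arms, miR-669a-5p was the most abundant arm of the cluster, with 382 reads in wild type (136 RPM) against 476 in Ago2ADH (169 RPM, log2 ratio 0.32, 0.12 to 0.51). Its opposite strand, miR-669a-3p, had 164 and 210 reads (log2 ratio 0.36, 0.05 to 0.66). The strands of this hairpin family thus differed by nearly the same ratio. For miR-669c-5p, which comes from 1 hairpin, 202 reads were counted in wild type against 294 in Ago2ADH (log2 ratio 0.54, 0.28 to 0.81). The arm miR-669b-5p rose from 130 reads (46.3 RPM) to 265 reads (94.3 RPM, log2 ratio 1.03, 0.72 to 1.34). It stands at the edge of the rule: with totals without miR-451 its log2 ratio was 0.85 (0.54 to 1.16) and it was no longer called. Just below the limit was miR-669f-5p, with 54 and 107 reads (log2 ratio 0.99, 0.50 to 1.48), which was called when libraries were scaled to all reads (1.10). The main read of miR-669f-5p had 2 genome matches, of which 1 lay on an Sfmbt2 hairpin. The arm miR-669d-5p had 88 reads in wild type against 152 in Ago2ADH (log2 ratio 0.79, 0.40 to 1.18). Within the family the intervals of miR-669a-5p and miR-669b-5p do not overlap, so these near-identical reads differed in ratio by more than counting error.

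The mir-467 arms were closer together. The arm miR-467e-5p had 243 reads in wild type against 346 in Ago2ADH (log2 ratio 0.51, 0.27 to 0.75). For miR-467d-5p the reads were 225 and 319 (log2 ratio 0.50, 0.25 to 0.75), and for miR-467a-5p they were 98 and 141 (log2 ratio 0.52, 0.14 to 0.91). The lowest of the family was miR-467c-5p, with 176 and 202 reads (log2 ratio 0.20, -0.10 to 0.50). That interval spans 0, and the sign turned (-0.0039) with totals that leave out the 10 most abundant arms. None of the 4 mir-467 arms met the size rule, and all of their intervals overlap.

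The mir-466 and mir-297 arms held the extremes. The arm miR-466b-3p was the only one of the 13 with fewer scaled reads in Ago2ADH, 118 in wild type against 102 in Ago2ADH (log2 ratio -0.21, -0.61 to 0.18). Its interval spans 0, and its sign turned (0.17) when each read was divided by its genome matches. The arm miR-466h-5p had 54 and 82 reads (log2 ratio 0.60, 0.09 to 1.12). Its main read had 4 genome matches, of which 1 lay on an Sfmbt2 hairpin. The largest ratio among the 13 arms past the minimum was that of miR-297a-5p, which rose from 51 reads (18.2 RPM) to 144 reads (51.2 RPM, log2 ratio 1.496, 1.03 to 1.99). The read printed above carried this difference, with 42 reads in wild type against 125 in Ago2ADH. Under each of the 5 other scalings tried the arm stayed above 2-fold, between 1.29 and 1.61 in log2. Because most genome matches of that read lie outside the Sfmbt2 hairpins, its counts cannot be assigned to the array.

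The other 32 arms were too rare for the size rule. They summed to 275 reads in wild type against 423 in Ago2ADH, and 22 of them had fewer than 20 reads in both libraries together. In this group 17 arms had more reads in Ago2ADH, 9 had fewer and 6 had equal counts, while 6 intervals lay above 0 and 0 below. Of those 6 arms, 5 had 20 to 99 reads, such as miR-466f-5p with 26 and 59 reads and miR-297c-5p with 13 and 34 reads. The other was miR-466j-3p, with 2 and 13 reads, and the annotated hairpin of that name lies outside Sfmbt2, on chromosome 10. A total of 7 arms were at 0 in 1 library, each with at most 2 reads in the other, which is under the limit of 3 reads. The same counts were not made over the rare arms of all miRNAs, so those given here do not set the cluster apart.

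**Figure D2:**
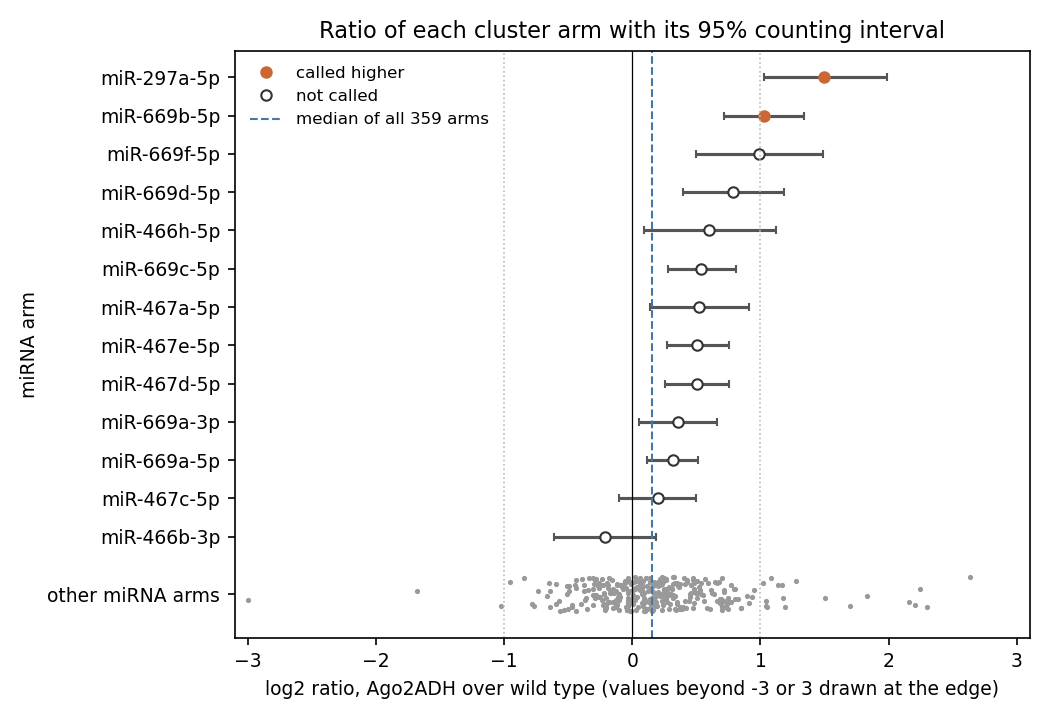
Log2 ratio of Ago2ADH to wild type, from counts scaled to all miRNA reads, for the 13 cluster arms with 100 or more reads, with bars for the exact counting interval of each ratio and grey points for the other miRNA arms past the minimum, values beyond 3 being drawn at 3. The median of all 359 miRNA arms past the minimum is 0.15; 12 cluster arms lie above it, and miR-297a-5p and miR-669b-5p lie beyond the limit of 1.

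The median log2 ratio of the 13 cluster arms was 0.52 (interval from the ordered values 0.32 to 0.99), beside 0.15 over all 359 arms past the minimum. The values ranged from -0.21 to 1.496. An interval wholly above 0 was found for 11 of the 13 arms, beside 48.2% of all arms, and an interval wholly above the median of all arms for 7 (53.8%), with 0 wholly below it. Over all 359 arms these shares were 30.1% and 31.8%. Changing the scaling moves every arm alike, so the cluster median stood 0.37 above that of all arms under each of the scalings tried. As a second imprinted miRNA cluster, the Dlk1-Dio3 miRNAs had 76 arms past the minimum with a median of 0.13, of which 3 were called higher and 0 lower. The 39 arms of other miRNAs whose reads mostly match the genome at several places had a median of 0.14, with 1 called higher and 1 lower. These medians are descriptions of 1 library pair, and their differences from the cluster were not tested.

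The 5p and 3p arms of the cluster differed in ratio. Reads of 5p arms summed to 1860 in wild type against 2818 in Ago2ADH (log2 ratio 0.60, 0.51 to 0.68). Reads of 3p arms summed to 399 and 441 (log2 ratio 0.14, -0.06 to 0.34), which spans 0. The 3p share of the cluster reads was accordingly 17.7% (16.1 to 19.3, exact Clopper-Pearson interval) in wild type and 13.5% (12.4 to 14.8) in Ago2ADH, a log2 odds ratio of -0.46 (-0.67 to -0.24).

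The 3p share was also compared within single miRNAs, which covers only part of the summed difference. In miR-669a, which holds more 3p reads than any other miRNA of the cluster, the 3p share was 30.0% in wild type against 30.6% in Ago2ADH. In miR-466b the 3p strand dominated, with 118 of 138 reads (85.5%) in wild type and 102 of 140 (72.9%) in Ago2ADH, a log2 odds ratio of -1.12 (-1.98 to -0.26). The 3p share of miR-466d was 75.0% and 57.8%, with 48 reads of the 3p arm in each library, and that of miR-466f was 42.2% and 24.4%, with 19 reads of the 3p arm in each. In these 3 mir-466 members the 3p counts were equal or lower in Ago2ADH and the 5p counts higher, although each rests on at most 140 reads a library. The miRNAs miR-467e, miR-669b and miR-669c gave almost only 5p reads, with 0 reads of the 3p arm in Ago2ADH and at most 2 in wild type. A miRNA of this kind lowers the summed 3p share when it rises more than the cluster as a whole (log2 ratio 0.53). The 5p arm of miR-669b did so (1.03), while those of miR-467e (0.51) and miR-669c (0.54) stayed near the cluster value. How much of the summed difference came from such miRNAs was not tested. Among reads with 1 genome match the log2 odds ratio of the 3p share was 0.06, with an interval from -1.68 to 1.80. The reads with 1 match could therefore not show the difference in the summed 3p share.

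Grouping reads by seed gave 74 seeds, of which 14 had 100 or more reads and together held 86.6% of the wild type and 86.9% of the Ago2ADH reads. The most abundant seed, GTTGTGT of miR-669a and miR-669f, had 424 and 560 reads (log2 ratio 0.40, 0.22 to 0.59). The seed AAGTGCG, shared by miR-467c and miR-467d, had 265 and 360 reads (log2 ratio 0.44, 0.21 to 0.67). The size rule called 2 of the 14 seeds higher and 0 lower, beside 25 higher (4.55%) and 22 lower (4.01%) of 549 seeds over all miRNAs. These were GTTTTGT of miR-669b, with 129 and 262 reads (log2 ratio 1.02, 0.71 to 1.34), and TGTATGT, shared by miR-297a, miR-297b and miR-297c, with 66 and 182 reads (log2 ratio 1.46, 1.05 to 1.89). Within the miRNA class, hardly any read of another miRNA carried these seeds. Reads outside that class were not part of this count. Among them, reads on Mir669l, described below, carried the seed of miR-669a, 106 in wild type and 122 in Ago2ADH. The counts were 0 for the seed of miR-669a, 0 for that of miR-467c, 0 for that of miR-297a and 2 for that of miR-669b.

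Because the copies share sequence, few reads can be given to 1 place. Reads with 1 genome match were 37.9% (wild type) and 36.4% (Ago2ADH) of the cluster reads, against 88.1% and 88.3% of all other miRNA reads. Their sum was 856 in wild type against 1187 in Ago2ADH (log2 ratio 0.47, 0.34 to 0.60), so the difference was also present where the source is unique. Reads with 10 to 29 matches had 882 and 1154 reads (log2 ratio 0.39, 0.26 to 0.51). Reads with 2 to 9 matches had 455 and 832 reads and the largest ratio, 0.87 (0.70 to 1.04), and its interval does not overlap those of the other classes just named. That class holds the main read of miR-669b-5p, with 3 matches, and of miR-669d-5p, with 2. At the other extreme, 11 sequences matched the genome at more than 1000 places and held 0.221% of the wild type and 0.276% of the Ago2ADH reads.

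Reads that matched only Sfmbt2 hairpins among all annotated ones summed to 2172 in wild type against 3055 in Ago2ADH (log2 ratio 0.49, 0.41 to 0.57). Reads that matched hairpins both in Sfmbt2 and elsewhere had 80 and 195 reads (log2 ratio 1.28, 0.90 to 1.68). The miR-297a-5p read is 1 of them. Reads on hairpins outside Sfmbt2 alone numbered 7 and 9.

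**Figure D3:**
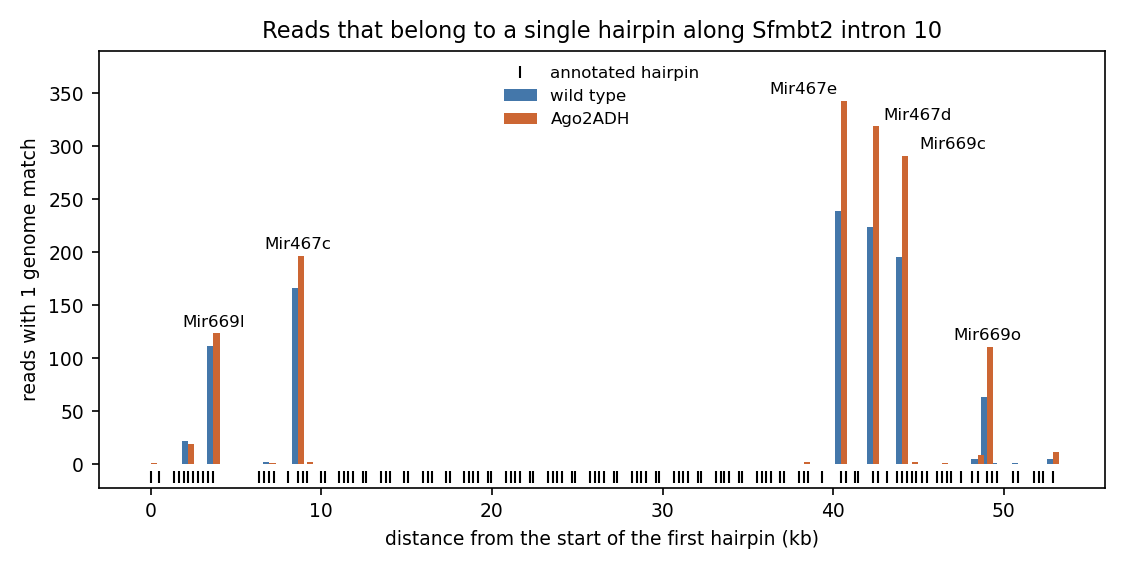
Reads with 1 genome match that lie on 1 hairpin, for wild type and Ago2ADH, along intron 10 of Sfmbt2, reads named Sfmbt2 included, with the distance from the start of the first hairpin in kb and ticks for all 119 annotated hairpins. Mir467e, Mir467d and Mir669c hold 65.2% of these reads, and the 67 hairpins between Mir669a-3 and Mir466b-3 have none.

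Along the intron, only the ends of the array could be read hairpin by hairpin. For this profile the reads named Sfmbt2, described below, were added to the members. Reads of their own were found on 17 of the 119 hairpins and on 0 of the 67 hairpins between Mir669a-3 and Mir466b-3, the repeated middle of the array. With shared reads counted, 100 hairpins matched at least 1 sequence. Of the own reads, 1037 in wild type against 1434 in Ago2ADH, 65.2% lay on 3 hairpins. Mir467e had 239 and 343 reads (log2 ratio 0.52, 0.28 to 0.76), Mir467d 224 and 319 (0.51, 0.26 to 0.76) and Mir669c 196 and 291 (0.57, 0.30 to 0.84). These neighbours near the 3′ end of the array had nearly equal ratios. Mir467c, near the 5′ end, had 166 and 197 reads (0.25, -0.06 to 0.55), and Mir669l, also near the 5′ end, had 112 and 124 reads (0.15, -0.24 to 0.53). Each end also held a rarer hairpin, Mir669e near the 5′ end with 22 and 19 reads (-0.21, -1.18 to 0.74) and Mir669o near the 3′ end with 64 and 111 reads (0.79, 0.34 to 1.26). The ratios of the hairpins named here were lower near the 5′ end than near the 3′ end, and the difference between the ends was not tested. Shared reads did not all follow this order. The main read of miR-669d-5p has 2 genome matches, both on hairpins near the 5′ end, between 10468384 and 10471679. It had 64 reads in wild type against 115 in Ago2ADH (log2 ratio 0.84, 0.39 to 1.31).

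Read ends, which fix the seed, were compared for the most abundant arms. The arms miR-669a-5p and miR-669c-5p had nearly fixed 5′ ends: 97.1% of the wild type and 95.2% of the Ago2ADH reads of miR-669a-5p began at the base of the main read, and 96.5% and 98.98% of those of miR-669c-5p. The arms miR-467d-5p and miR-467e-5p began mostly at either of 2 neighbouring bases. In miR-467e-5p, 54.7% (48.2 to 61.1) of the wild type and 59.5% (54.2 to 64.7) of the Ago2ADH reads began as printed above, and 43.2% and 39.0% began 1 base later. In miR-467d-5p, 68.4% and 73.4% began as printed and 30.2% and 26.6% began 1 base earlier. The intervals of the genotypes overlap in each case, so a difference in 5′ cutting was not detectable. The 3′ ends were more varied: the main 3′ end was found in 46.1% and 50.6% of miR-669a-5p reads and in 66.7% and 65.6% of miR-467e-5p reads. In miR-467d-5p, reads ending 1 base beyond the main read were 14 of 225 (6.22%, 3.44 to 10.2) in wild type and 38 of 319 (11.9%, 8.57 to 15.98) in Ago2ADH, and reads ending 1 base before it were 44.4% and 37.0%. In miR-467e-5p, reads ending 2 bases beyond the main read went the other way, with 9.05% and 5.78%. The intervals of the genotypes overlap for each of these ends, which does not show that the shares were equal.

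**Figure D4:**
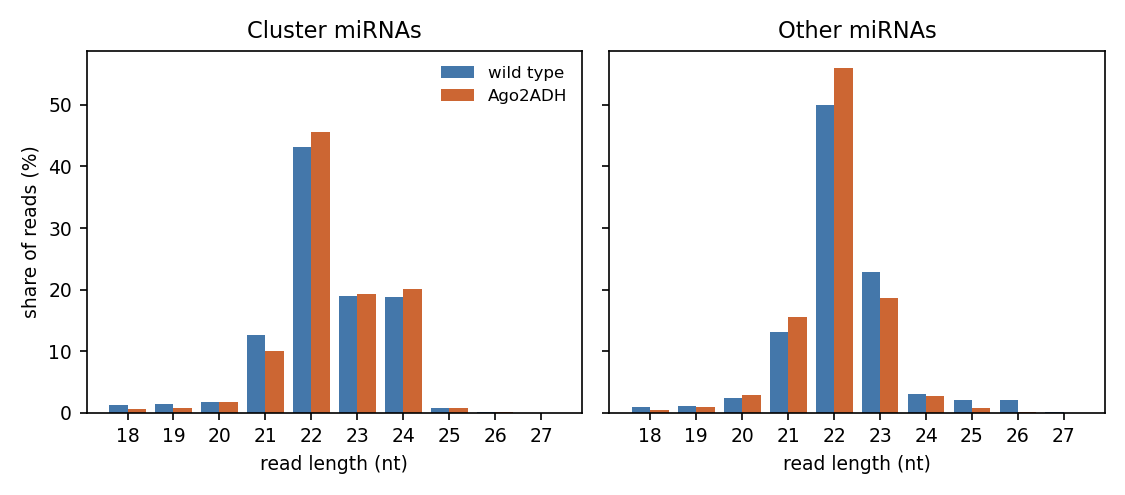
Share of reads by length in nt, in percent, for the cluster and for all other miRNA reads in wild type and Ago2ADH. Reads of 24 nt make up 18.8% and 20.1% of the cluster, against 3.04% and 2.77% of other miRNAs.

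Cluster reads were 24 nt long more often than reads of other miRNAs. Reads of 24 nt made up 18.8% (17.3 to 20.5) of the cluster reads in wild type and 20.1% (18.7 to 21.5) in Ago2ADH, while in other miRNAs they were 3.04% and 2.77%. The mir-669 family had the highest share, with 42.8% and 43.3% of the reads of its 5p arms at 24 nt. Over both arms together the shares were 35.4% and 36.8% in mir-669, 10.2% and 13.0% in mir-466, and 3 of 79 reads and 12 of 197 (6.09%) in mir-297. In the 5p arms of mir-467 the share was 1.08% and 0.495%, and 22 nt was their main length (61.8% and 61.7%). The intervals of the genotypes overlap for each of these cluster shares, while the families differed.

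Reads on the same hairpins were also found outside the miRNA class. The deposited table gives 34 sequences that match Sfmbt2 hairpins the name of the host gene, in the class of RefSeq transcripts, and they had 196 reads in wild type against 264 in Ago2ADH. Of these, 195 and 261 were 20 to 25 nt long, the length of mature miRNAs. They lay mainly on Mir669l and Mir669o, which are annotated hairpins, and the main read of each is shown because neither name occurs among the members, with capitals again for bases 2 to 8.
Mir669l: aGTTGTGTgtgcatgtatatgt
Mir669o: tAGTTGTGtgtgcatgtttatgt

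The Mir669l read is at 10468989 to 10469010 and the Mir669o read at 10514318 to 10514340 of chromosome 2 (GRCm38, plus strand). The first carries the seed of miR-669a. It had 64 reads in wild type against 70 in Ago2ADH, and the second 37 and 36. The reads of Mir669o as a whole were 64 and 111 (log2 ratio 0.79, 0.34 to 1.26), so the additional reads had other ends. A start 1 base later, which gives the miR-669a seed, was found in 16 of 64 Mir669o reads in wild type (interval of the share 15.02% to 37.4%) and in 59 of 111 in Ago2ADH (53.2%, 43.4 to 62.7). These intervals do not overlap, and no other 5′ start described here differed by as much. The hairpin was singled out after its values were seen.

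Transcripts of the host gene left few fragments. Off the hairpins, reads named Sfmbt2 numbered 19 in wild type against 32 in Ago2ADH (log2 ratio 0.86, -0.0017 to 1.76) when scaled to all reads. Only 1 and 6 of them lay in annotated exons, so the level of the Sfmbt2 mRNA could not be compared from these libraries.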

How the data were processed

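Per the labels' protocols, RNA of 19 to 30 nt from fetal liver was gel-purified, adapter-ligated, amplified and sequenced, with 1 wild type and 1 Ago2ADH library. The authors deposited raw counts per distinct read sequence and library, not normalized, with a class, a name and, as another number in the deposited table, the genome matches of each sequence. An aligner, a genome build and an annotation were not given in the sources used here. Columns of other series in the table numbered 0.

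Genotypes came from the labels. Reads were placed by exact match on 2202 miRNA genes of GENCODE M21 (GRCm38), and the arm was set by the place in the hairpin or by the deposited name. Of 29 cluster miRNAs, 5 had an entry in the RefSeq table (miR-466i, miR-466j, miR-466k, miR-467f and miR-467g), so the printed reads come from the deposited table and not from RefSeq. Counts were scaled to all miRNA reads and mRNA fragments to all reads. Ratios have exact conditional binomial intervals of 95%, shares exact Clopper-Pearson intervals, and odds ratios Woolf intervals after 0.5 was added to each count. No p-value was computed. The size rule was 100 or more reads, a ratio of 2 or more (or 0.5 or less) and an interval excluding 1. It was run on simulated counts with counting error only and without changes near the limit, which cannot judge calls close to 2-fold.

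The naming rule took every cluster arm with 100 or more reads, every called arm and mir-468 and mir-469. Sequences were printed for the 8 most abundant and the called arms, and read ends given for the 4 most abundant. The rarer arms named as examples, the hairpins, and Mir669l and Mir669o were chosen after their values were seen. The members and lists were chosen with earlier results of these data known. Alternatives changed the scaling (to all reads, by median-of-ratios, by TMM of edgeR 4.0.16, totals without the 10 most abundant arms or without miR-451), reads of 20 to 24 nt, distinct sequences, division by or restriction on genome matches, other minimums and limits, and other units. Python 3.11.15, pandas 2.3.3 and scipy 1.17.1 were used.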

Additional observations from a re-analysis of the deposited data

Results flagged for a closer look

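Reads on Sfmbt2 hairpins that the deposited table names Sfmbt2 lie outside the miRNA class on which the comparisons rest, and were above the limit of 3 reads in both libraries. Their log2 ratio of Ago2ADH to wild type was 0.43 (0.16 to 0.70), from 196 and 264 reads. The cluster with these reads added had 2456 and 3527 reads and a log2 ratio of 0.52.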

How the results depend on the processing

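The summed log2 ratio of 0.53 was 0.64 scaled to all reads, 0.38 with median-of-ratios, 0.39 with TMM, 0.33 without the 10 most abundant arms, 0.35 without miR-451 and 0.17 (-0.09 to 0.44) in distinct sequences. The 2 of 13 arms called higher became 1 of 13 with median-of-ratios, TMM or either reduced total. With division by genome matches 1 of 6 cluster arms was called higher (18 of 345 over all arms). With a minimum of 200 reads it was 1 of 10 (17 of 307 over all arms). In reads with 1 genome match it was 0 of 4 (17 of 322 over all arms). In distinct sequences 0 cluster arms reached the minimum, and 0 of 18 were called over all arms. Scaled to all reads, 3 of 13 were called higher (25 of 359 over all arms). The count was 5 of 19 with a minimum of 50 reads (27 of 412 over all arms). With a limit of 1.5-fold it was 5 of 13 (59 of 359 over all arms). Over all arms, calls were 20 higher and 3 lower, 13 and 4 with median-of-ratios and with TMM, 11 and 5 without miR-451, and 10 and 5 without the 10 most abundant arms. The count of arms called lower was 0 under each alternative, and the cluster median stayed between 0.32 and 0.63. For miR-669b-5p the log2 ratio reversed to -0.13 in distinct sequences (17 of them) and was 0.88 with median-of-ratios and with TMM, 0.82 and 0.85 with the reduced totals. That of miR-297a-5p was 0.45 in distinct sequences and 1.58 when divided by genome matches, which left 12 reads. The log2 odds ratio of the 3p share, -0.46, was -0.010 in distinct sequences and 0.060 in reads with 1 genome match. The log2 ratio of the seed GTTGTGT, 0.40, was 0.20 without the 10 most abundant arms, 0.17 in distinct sequences and 0.68 divided by genome matches. Fewer arms and reads entered under the restricted counts; otherwise the cause was not tested. Of 108 values of the 13 named arms, 100 kept their call or their lack of a call. For arms that were not called, this count did not ask for the same direction. In distinct sequences the sign turned for miR-466b-3p (0.34), miR-467c-5p (-0.06), miR-467d-5p (-0.38), miR-467e-5p (-0.07) and miR-669c-5p (-0.08), each with an interval that spans 0. No median could be had in distinct sequences, and no seed value in reads with 1 genome match. Limiting the members to Sfmbt2 hairpins and adding the reads named Sfmbt2, both chosen after seeing the data, moved no summed ratio beyond its interval. No paired analysis was possible because each genotype has 1 library and the labels carry no replicate numbers. The depth, 2260 and 3263 cluster reads, limits every statement on a rare arm.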
